A study of Mus musculus with 16 samples.

Results

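The 10 genes described here encode the core machinery that makes microRNAs and puts them to use: Drosha and Dgcr8, Xpo5, Dicer1 and Tarbp2, the Argonautes Ago1 to Ago4, and Tnrc6a. They were chosen by name, and every probe set (a group of short probes for 1 transcript) that carried 1 of these symbols and no other was taken, which gave 34 probe sets of the 45037 tested. RNA had been measured on 16 Affymetrix mouse 430 2.0 arrays, 4 in each of 4 groups, all from MC/9, a mouse mast cell line. Exosomes, the small vesicles that cells release, came from MC/9 cultures under normal conditions (norm exo) or under oxidative stress, which was 125 µM H2O2 for 24 h (oxi exo). The cell arrays are norm cell and oxi cell. The titles of these samples name MC/9 cells from normal or H2O2 conditions, while elsewhere the sample labels say that these cells were given exosomes of either condition. The study treats them as the exosome donors, kept in vehicle or in H2O2, and they are read here as donors. All groups share the cell line and a medium whose serum and growth supplement had been freed of exosomes, and both exosome groups had passed a 0.22 µm filter and a spin of 120000 g for 70 min. The line is a cultured one, no further subline or knockout is named, and the sources do not say for every replicate that it was a separate culture, so p-values measure only the spread between these samples, which may be technical.

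MicroRNAs are cut from longer transcripts in 2 steps. In the nucleus, the nuclease DROSHA and its RNA-binding partner DGCR8 form the Microprocessor, which releases a hairpin that exportin 5, the product of Xpo5, carries to the cytoplasm. There DICER, with its partner TRBP (Tarbp2), trims the hairpin to a short duplex, 1 strand of which is loaded into an Argonaute protein. Argonaute 2 is the member that can also cleave a matched target, and TNRC6 proteins (GW182) link Argonautes to the enzymes that shorten the poly(A) tail of the target. Mast cells depend on this pathway for their development, and vesicles released by MC/9 cells are known to hold microRNA beside messenger RNA. The arrays measured messenger RNA only, so the values below are transcript levels of the machinery and not of microRNAs or proteins.

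Signals are MAS5.0 intensities on a linear scale, set by the authors to the same trimmed mean on each array. An array's background was taken as the 95th percentile of 279 probe sets of tissue-restricted genes, and it lay at 214 to 256 in norm exo and 233 to 263 in oxi exo, against 13.0 to 18.1 in norm cell and 11.7 to 14.6 in oxi cell. The spiked hybridization controls were 17.3 times brighter in norm exo than in norm cell, and 20.8 times brighter in oxi exo than in oxi cell. The 3' to 5' signal ratio of Gapdh, a measure of RNA integrity, was 1.43 to 1.77 in norm exo and 1.48 to 2.33 in oxi exo, against 0.823 to 0.884 over the cell arrays. The same ratio of actin was 3.81 to 6.55 in norm exo and 2.77 to 4.48 in oxi exo, so by their medians the measures put the exosome groups in opposite order, with overlapping ranges, and it was 1.30 to 1.55 over the cell arrays. Of 11 mast cell markers, 10 were above background on all 4 arrays of each cell group, while 0 of 9 B lymphocyte markers and at most 3 of 11 macrophage markers were. The number of arrays limits the precision of each value.

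In MC/9 cells, every step of the pathway was represented. All 10 genes had at least 1 probe set above background on all 4 norm cell arrays and all 4 oxi cell arrays. By probe set, 27 of 34 were above background throughout in each cell group, which is 79.4%, against 43.7% of all probe sets in norm cell and 44.3% in oxi cell. In exosomes the picture was narrower. In norm exo 5 of the 34 probe sets were above background on all 4 arrays (14.7%, against 4.67% of all probe sets), and they belonged to Ago2, Ago3 and Tnrc6a. In oxi exo only 2 were (5.88%, against 2.88%), 1 of Ago3 and 1 of Tnrc6a. Drosha, Dgcr8, Dicer1, Xpo5, Tarbp2, Ago1 and Ago4 did not lie above background on all 4 arrays of either exosome group with any probe set, and 24 of the 34 probe sets in norm exo and 25 in oxi exo were above it on no array. At a background this high, transcripts of these 7 genes were not detectable throughout either exosome group, which does not show that they were absent.

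**Figure D1:**
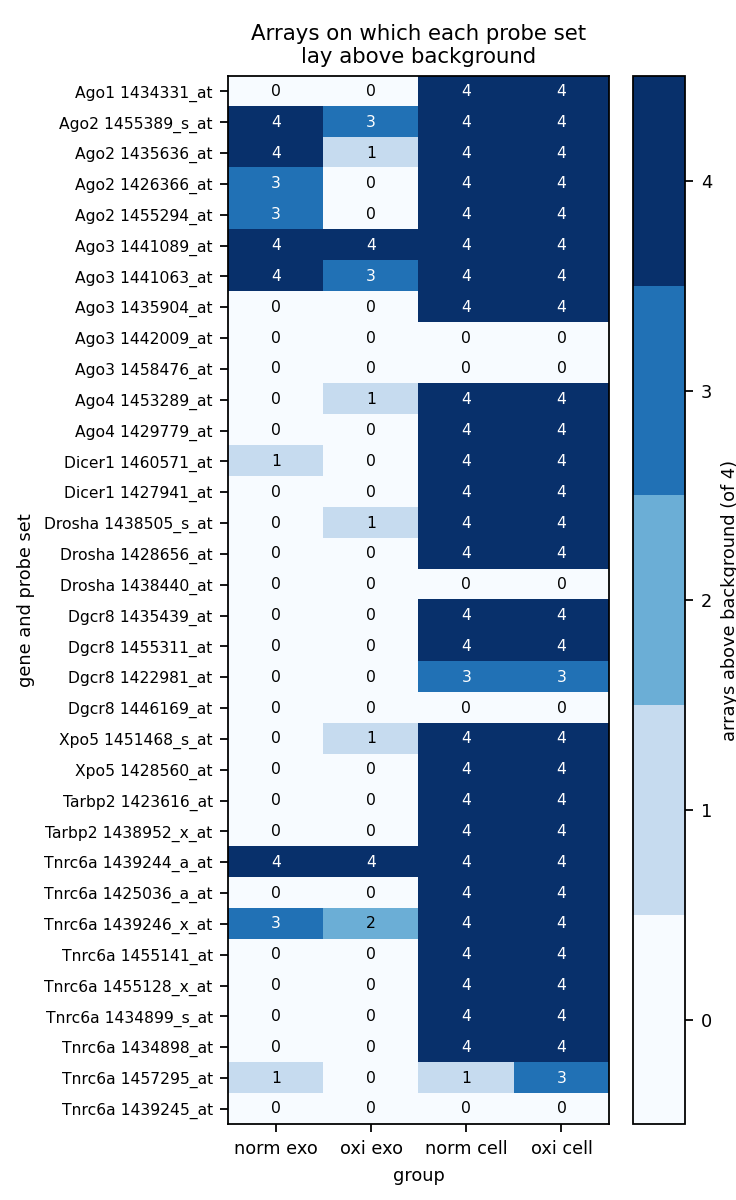
Number of arrays, of 4 in each group, on which each of the 34 probe sets lay above the array's background. Rows are probe sets by gene and columns are the groups; darker cells stand for more arrays, with 27 probe sets at 4 in each cell group, 5 in norm exo and 2 in oxi exo.

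Ago2 transcript was lower in exosomes released under H2O2. With probe set 1455389_s_at, the brightest for this gene, the 4 norm exo arrays read 1517, 1337, 788 and 923. The 4 oxi exo arrays read 257, 338, 398 and 310.2, of which 3 were above background. The groups do not overlap, and the lowest norm exo array was well above the highest oxi exo array. The log2 change was -1.78 (standard error 0.26, 95% interval -2.32 to -1.23, adjusted p = 0.000842 from limma). The call held without each replicate in turn (highest adjusted p = 0.00996). Probe set 1455294_at read 364, 269.7, 177 and 259 in norm exo and 23.5, 19.7, 22.9 and 11.8 in oxi exo. Of the norm exo values 3 were above background, and all 4 oxi exo values are far under the background of their arrays, so although the fitted log2 change was -3.78 (standard error 0.66, adjusted p = 0.00359), the part that can be read above background is at least 1.02-fold, and with signals floored at background its adjusted p was 1.

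The other probe sets of Ago2 pointed down without passing the test. Probe set 1435636_at, which the array's annotation places on the same clone as 1455389_s_at, read 513, 638, 334 and 455 in norm exo and 227, 213, 261 and 221 in oxi exo. These groups do not overlap either, with a log2 change of -1.04 (95% interval -1.64 to -0.43, adjusted p = 0.0989). Probe set 1426366_at read 282, 259, 350.4 and 195 in norm exo and 187, 178, 193 and 215 in oxi exo, which overlap (log2 change -0.46, 95% interval -1.15 to 0.22, adjusted p = 0.697). In cells, by contrast, the brightest probe set ran from 1130 to 1201 in norm cell and from 964 to 1119 in oxi cell, groups that lay close together without overlapping (log2 change -0.14, 95% interval -0.27 to -0.01, adjusted p = 0.172), and called lower after quantile normalization (log2 change -0.21, adjusted p = 0.0338).

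**Figure D2:**
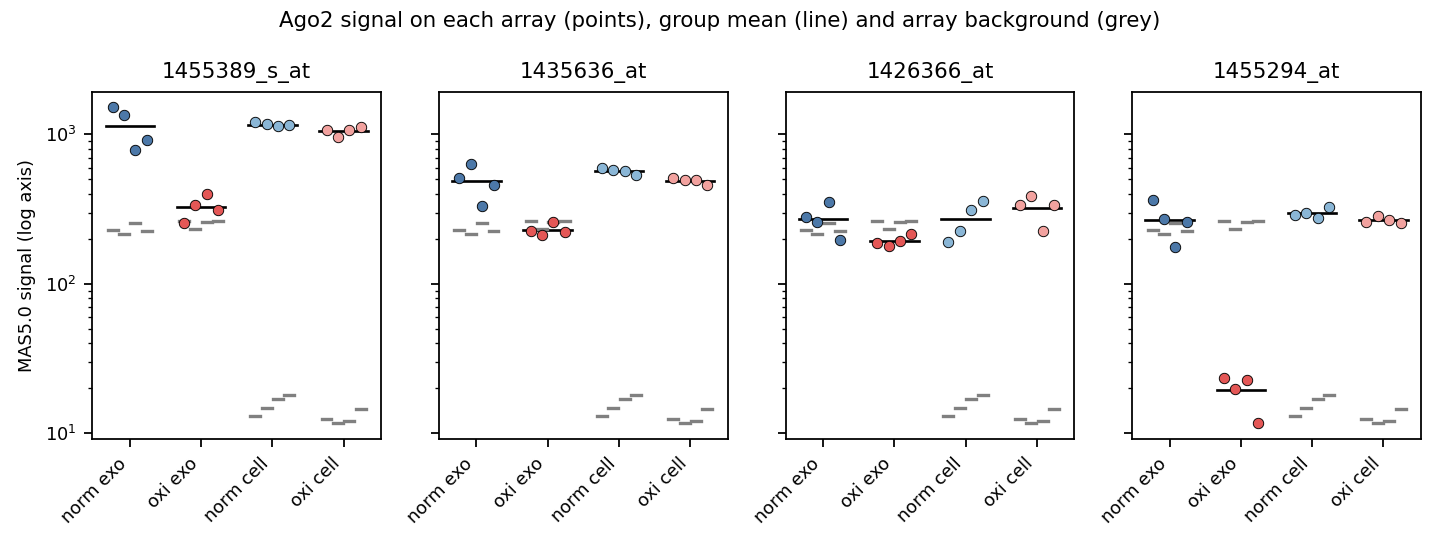
Signal of the 4 probe sets of Ago2 on each array (points, log axis), with the group mean (black line) and the background of each array (short grey lines). The 4 oxi exo arrays lie at 257 to 398 for 1455389_s_at and at 11.8 to 23.5, far under background, for 1455294_at, while the cell arrays lie well above theirs.

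These 2 falls were the calls of limma among the 34 probe sets from norm exo to oxi exo, and 0 were called higher (at an unadjusted p under 0.05, 3 were lower and 1, of Xpo5, higher; the methods' paired t-test gave 0 after adjustment). Of all 45037 probe sets, 1.7% were called lower and 0.0311% higher. The groups did not overlap for 3 of the 34, all of Ago2, against 6.57% of all probe sets. Most probe sets were under background in exosomes. Among the 2726 whose mean log2 signal over the 8 exosome arrays was above the mean background, 594 (21.8%) were called lower and 3 higher, with a median log2 change of -0.22, and 4.99% fell further than Ago2 did with 1455389_s_at. Of the 11 mast cell markers, 5 also fell in exosomes, and their summed signal was 4468 to 7204 over the norm exo arrays and 1712 to 2655 over the oxi exo arrays. Of the markers of other cell types, 1 of 11 for T lymphocytes and 0 of the rest were above background throughout an exosome group, and none was called. The part that the lower mast cell signal or the RNA integrity has in the result for Ago2 was not tested, and fewer vesicles and less RNA in each vesicle cannot be told apart in such samples.

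Tnrc6a and Ago3 were measurable in exosomes under both conditions with their brightest probe sets, and gave no call. Not every probe set detected them there. Tnrc6a with 1425036_a_at, 1455128_x_at, 1455141_at, 1434899_s_at and 1434898_at was above background on 0 exosome arrays. The means of these probe sets in norm cell were 379, 376, 275, 262 and 91.0, each above background on all cell arrays. Ago3 with 1435904_at (mean 29.3 in norm cell) was above background on 0 exosome arrays too. The probe sets of Tnrc6a thus disagree on its detection in exosomes, and its result there rests on 1439244_a_at, the only one above background on all exosome arrays. Tnrc6a, the scaffold that recruits deadenylases to Argonaute, read 529, 486, 498 and 465 with probe set 1439244_a_at in norm exo, and 450.0, 627, 671 and 394 in oxi exo. The oxi exo arrays spread on either side of the norm exo arrays, at a log2 change of 0.08 with a 95% interval of -0.43 to 0.59 (adjusted p = 0.952). Ago3, a second Argonaute, read 575, 423, 464 and 371 in norm exo and 442, 436, 361 and 376 in oxi exo with 1441089_at. The groups overlap, at a log2 change of -0.17 (95% interval -0.69 to 0.35, adjusted p = 0.879). A fall as large as that of Ago2 with 1455389_s_at lies outside both intervals. For the remaining genes the intervals are wide. Xpo5 with 1451468_s_at, for instance, read 16.8, 77.8, 20.0 and 15.2 in norm exo and 96.4, 324, 89.6 and 33.7 in oxi exo, with 1 of these 8 arrays above background (log2 change 1.97, 95% interval 0.26 to 3.69, adjusted p = 0.414). The median log2 change over the 34 probe sets was -0.07, against 0.06 over all probe sets.

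Whether H2O2 changed exosomes and cells differently was tested on the differences within pairs of the same replicate number, which the data do not show to be true pairs. The change of Ago2 in exosomes minus that in cells was -1.64 on the log2 scale with 1455389_s_at (standard error 0.32, adjusted p = 0.0272) and -3.63 with 1455294_at (standard error 0.40, adjusted p = 0.00372). Since 1455294_at was under background on all 4 oxi exo arrays, the size of the second value cannot be read, and floored at background it was no longer called (adjusted p = 1). With the other probe sets of this gene it was -0.82 and -0.72 (adjusted p = 0.271 and 0.467). The call for 1455389_s_at was lost without replicate 1, 2 or 4 (adjusted p = 0.138, 0.181 and 0.133) and with quantile normalization (log2 difference -1.42, adjusted p = 0.0989), and that for 1455294_at without replicate 2 (adjusted p = 0.0576). Thus 2 of 34 probe sets were called lower and 0 higher by limma, against 1.47% and 0.0933% of all probe sets (3 and 2 at an unadjusted p under 0.05).

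In the cells, 1 probe set each of Drosha, Dicer1 and Tarbp2 was higher after H2O2, and 1 each of Dgcr8, Ago4, Ago2 and Tnrc6a was lower, all by less than 2-fold. Of the 34 probe sets 4 were called lower and 3 higher from norm cell to oxi cell, against 5.51% and 4.31% of all probe sets, and the groups did not overlap for 8 of 34, against 16.1%. The 34 were more often above background in cells than all probe sets were, so these shares are not those of probe sets equally detected. These directions depend on how the arrays are set level. Scaling to the spiked controls moves the median log2 change of all probe sets from -0.15 to 0.15. Under it 0 of the 34 were lower and 8 higher, against 0.955% and 14.3% of all probe sets. Quantile normalization gave 4 lower and 4 higher, against 4.04% and 4.61%. The median over the 34 was -0.11 with the deposited scaling.

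Drosha, the nuclease of the Microprocessor, was higher in oxi cell with both of its probe sets above background. Probe set 1438505_s_at read 346, 344, 309 and 337 in norm cell and 406, 399, 464 and 399 in oxi cell. All 4 oxi cell arrays lie above all 4 norm cell arrays, with replicate 3 the highest, at a log2 change of 0.32 (standard error 0.08, adjusted p = 0.021). Probe set 1428656_at read 147, 159, 153 and 166 in norm cell and 209, 179, 193 and 180.1 in oxi cell, again without overlap, but it did not pass the test (log2 change 0.28, 95% interval 0.09 to 0.47, adjusted p = 0.0675). The call for 1438505_s_at was lost when replicate 2, 3 or 4 was left out (highest adjusted p = 0.071). Scaled to the spiked controls, the log2 change was 0.62.

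Dgcr8, whose product anchors the hairpin for DROSHA, went the other way. Probe set 1455311_at read 177, 150.1, 169 and 176 in norm cell and 110.2, 137, 102 and 127 in oxi cell. The groups do not overlap, and the log2 change was -0.50 (standard error 0.11, adjusted p = 0.012; 0.0707 without replicate 1), or -0.21 and no longer called with scaling to the spiked controls (adjusted p = 0.311). A second probe set, 1435439_at, which had the highest mean over all 16 arrays but not over the cell arrays, ran from 108 to 127 in norm cell and from 101 to 109 in oxi cell, which overlap (log2 change -0.19, 95% interval -0.40 to 0.03, adjusted p = 0.291). The Dgcr8 transcript is itself a Microprocessor substrate, since hairpins in its 5' part are cut by the complex that its product forms. RefSeq places the microRNAs miR-1306 and miR-3618 within Dgcr8 on the minus strand of chromosome 16 (GRCm38.p6). Their mature strands are shown because they are products of a member of the pathway's own machinery, with the seed, bases 2 to 8, in capitals:
mmu-miR-1306-5p (chr16:18284288-18284310): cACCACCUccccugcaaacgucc
mmu-miR-1306-3p (chr16:18284248-18284268): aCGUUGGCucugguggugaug
mmu-miR-3618-5p (chr16:18284602-18284623): uGUGAUUUccaauaauugaggc
mmu-miR-3618-3p (chr16:18284562-18284583): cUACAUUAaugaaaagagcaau
The 4 seeds differ from each other, and the levels of these microRNAs were not measured on the arrays.

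At the Dicer step, 1 probe set of each gene was called higher and the other was not. Dicer1 with 1427941_at read 187, 161, 183 and 151 in norm cell and 221, 224, 216 and 184 in oxi cell. The groups overlap only in that the lowest oxi cell array lies under the highest norm cell array, at a log2 change of 0.31 (standard error 0.08, adjusted p = 0.0285; lost without replicate 1, 2 or 4, highest adjusted p = 0.151). Its other probe set, 1460571_at, which is the dimmer one in cells, ran from 129 to 156 in norm cell and from 132 to 156 in oxi cell, a log2 change of 0.03 with a 95% interval of -0.16 to 0.22 that excludes the value of the other probe set. Tarbp2 with 1438952_x_at read 31.2, 54.2, 45.6 and 27.0 in norm cell and 92.1, 71.4, 51.8 and 52.6 in oxi cell, so replicates 3 and 4 of oxi cell fall within the norm cell range. The log2 change was 0.78 (standard error 0.21, adjusted p = 0.0379; lost without replicate 1, 2 or 4, highest adjusted p = 0.187), against 0.10 (95% interval -0.11 to 0.32) for the brighter 1423616_at. Xpo5, the carrier between the 2 cuts, ran from 61.8 to 79.8 in norm cell and from 65.3 to 93.0 in oxi cell with 1451468_s_at, and its 2 probe sets had log2 changes of 0.16 and 0.06 (adjusted p = 0.444 and 0.803).

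Tarbp2 also had a probe set called higher in oxi cell, but only the promoters of Drosha and Dicer1, which each had one, are shown. They are the 250 bases before the RefSeq start in GRCm38.p6, 5' to 3' on the strand of the gene, with matches to the CCAAT box (CCAAT) and the GC box (GGGCGG) on either strand in capitals:
Drosha (chr15:12824565-12824814, plus strand): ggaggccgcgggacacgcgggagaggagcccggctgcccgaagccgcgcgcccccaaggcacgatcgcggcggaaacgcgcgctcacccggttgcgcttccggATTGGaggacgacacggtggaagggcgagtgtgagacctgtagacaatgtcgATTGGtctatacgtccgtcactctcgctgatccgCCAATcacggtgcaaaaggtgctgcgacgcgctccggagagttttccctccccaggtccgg
Dicer1 (chr12:104751953-104752202, minus strand): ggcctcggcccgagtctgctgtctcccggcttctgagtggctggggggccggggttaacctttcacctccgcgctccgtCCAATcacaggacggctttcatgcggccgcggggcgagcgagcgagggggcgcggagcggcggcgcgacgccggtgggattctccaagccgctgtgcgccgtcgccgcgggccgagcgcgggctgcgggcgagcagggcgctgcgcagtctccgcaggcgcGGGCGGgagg
Drosha has 3 CCAAT boxes and 0 GC boxes, and Dicer1 has 1 of each, with no overlap between matches. Tarbp2, whose window is not shown, has 3 CCAAT boxes and 3 GC boxes. CCAAT boxes were found in 33.8% and GC boxes in 32.7% of 32851 mouse promoters of this length. Dgcr8, which had a probe set called lower, has 4 CCAAT boxes, so the number of boxes does not separate the directions. The core of the antioxidant response element (TGACNNNGC, on either strand), which NRF2 binds in oxidative stress, was in 0 windows of the 9 members with an entry and in 10.2% of all promoters, which says only that these letters are not in these windows. The E box (CACGTG) was in none of the 9 either, against 6.02% of all. Ago2 is the member without a promoter entry, so neither search covers it.

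Among the Argonautes, Ago4 fell. With probe set 1429779_at it read 173, 179, 228 and 201 in norm cell and 134, 150.0, 148 and 142 in oxi cell. The groups do not overlap, at a log2 change of -0.44 (standard error 0.09, adjusted p = 0.00823), and this was the one call among the members in cells that held without each replicate in turn (highest adjusted p = 0.0458). With scaling to the spiked controls it was -0.14 and not called (adjusted p = 0.496). The other probe set of Ago4, 1453289_at, read 212, 176, 184 and 189 in norm cell and 149.8, 157, 182 and 139 in oxi cell. The groups overlap in part (log2 change -0.28, 95% interval -0.49 to -0.07, adjusted p = 0.0941). Ago2 was called with 1435636_at, at 600.0, 579.6, 566 and 536 in norm cell and 508, 498, 494 and 457 in oxi cell. The groups do not overlap, but the log2 change was small at -0.22 (adjusted p = 0.029), the call was lost whichever replicate was left out (adjusted p = 0.0552 to 0.112), and the direction turned to 0.08 with scaling to the spiked controls. Ago1 ran from 241 to 332 in norm cell and from 219 to 262 in oxi cell, which overlap (log2 change -0.18, 95% interval -0.34 to -0.02, adjusted p = 0.159). Ago3 had 3 probe sets above background in cells, with log2 changes of 0.10, -0.28 and -0.02 and no call. Ago3, Ago1 and Ago4 lie side by side on chromosome 4 (126326994 to 126533586 in GRCm38.p6), apart from Ago2 on chromosome 15.

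Tnrc6a had 9 probe sets that differed widely in brightness, 7 of them above background on all cell arrays. The brightest, 1439244_a_at, read 537, 570.0, 523 and 543 in norm cell and 506, 611, 514 and 558 in oxi cell. The groups overlap fully, with a log2 change of 0.01 and a 95% interval of -0.12 to 0.14. Only 1439246_x_at was called, at 82.6, 94.6, 90.7 and 81.0 in norm cell and 50.5, 75.9, 73.3 and 60.5 in oxi cell, without overlap (log2 change -0.44, adjusted p = 0.0374). That call was lost whichever replicate was left out (highest adjusted p = 0.173), with quantile normalization (adjusted p = 0.146) and on the scale of the spiked controls (adjusted p = 0.598), and the interval of the brightest probe set excludes its value.

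**Figure D3:**
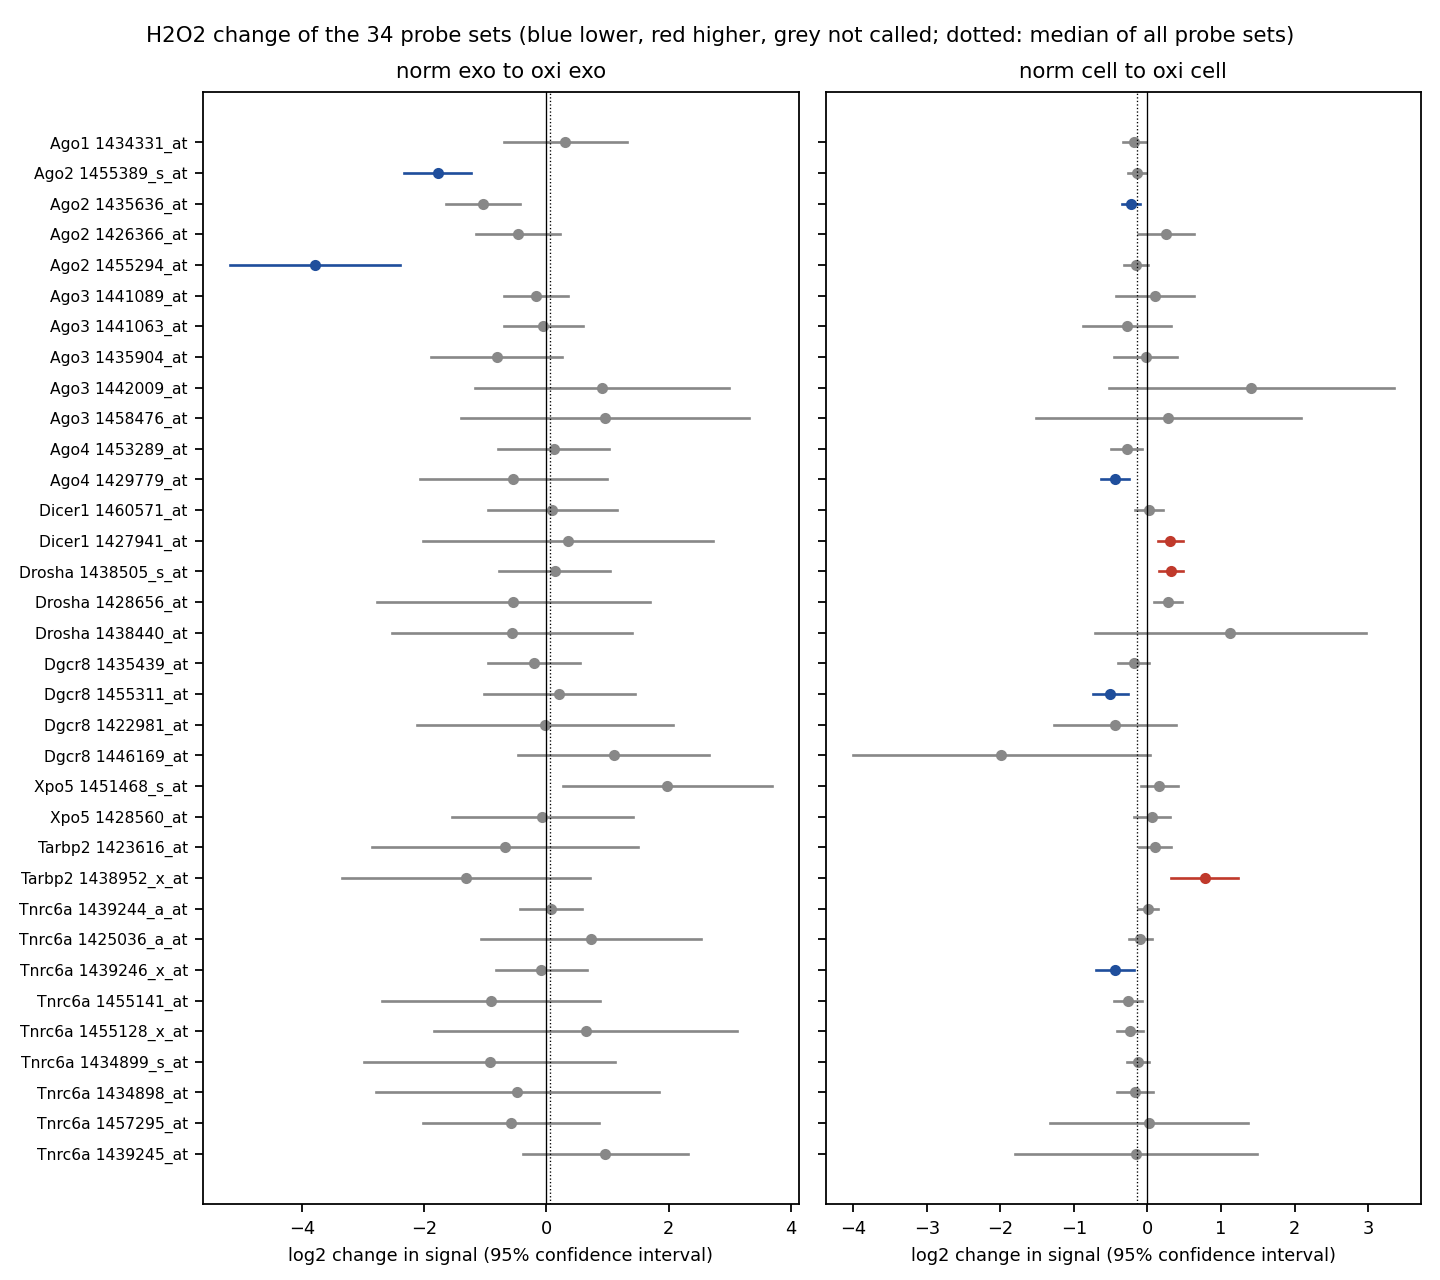
Log2 change in signal with H2O2 for each of the 34 probe sets, in exosomes (left) and cells (right), as limma estimates (points) with 95% confidence intervals (lines). Blue marks a lower and red a higher call, the dotted line is the median of all probe sets, and the 2 panels have different axes: 2 probe sets of Ago2 are lower in exosomes, and 4 are lower and 3 higher in cells.

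Around these 10 genes, 78 other genes of the pathway were listed, of which 73 were measured, each by its brightest probe set. From norm cell to oxi cell 9 were called lower and 12 higher with the deposited scaling, 10 and 9 after quantile normalization, and 1 and 32 on the scale of the spiked controls. Of all probe sets 5.51% were lower and 4.31% higher with the deposited scaling, 4.04% and 4.61% after quantile normalization, and 0.955% and 14.3% on the scale of the spiked controls. The genes of microRNA tailing, trimming and turnover gave 4 of 12 lower and 0 higher (6 and 1 at an unadjusted p under 0.05 in limma), against 5.51% and 4.31% of all probe sets. Of these 12, 9 were above background throughout a cell group, and the difference from all probe sets was not tested. Tut4, a uridylyl transferase that can mark let-7 precursors for decay, went from 654 ± 30.5 (SD, n = 4) to 387 ± 45.5 (log2 change -0.76, adjusted p = 0.00021). Its relative Tut7 went from 953 ± 25.3 to 698 ± 39.6 (log2 change -0.45, adjusted p = 0.00084). Dis3l2, an exonuclease that degrades RNA tailed in this way, went from 86.8 ± 8.02 to 57.9 ± 10.3 (log2 change -0.60, adjusted p = 0.0073). Zswim8, the adaptor of target-directed microRNA decay, was the fourth (log2 change -0.56, adjusted p = 0.0279). The calls for Tut4, Tut7 and Dis3l2 held without each replicate in turn, and Zswim8 was lost without replicate 1, 3 or 4 (highest adjusted p = 0.101) and with quantile normalization (adjusted p = 0.123). With scaling to the spiked controls all 4 kept a negative sign, of which only Tut4 was still called (log2 change -0.47, adjusted p = 0.00145).

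Downstream of Argonaute, 2 of 27 genes of deadenylation, decapping and decay were called lower and 6 higher, against 5.51% and 4.31% of all probe sets. All 27 were above background throughout a cell group, so all probe sets are an unlike baseline here too. Pan2 and Pan3, the subunits of the deadenylase that TNRC6 proteins recruit, were both called lower with the deposited scaling. Pan2 went from 112 ± 3.45 to 70.9 ± 6.60 (log2 change -0.66, adjusted p = 0.0021) and Pan3 from 293 ± 8.88 to 212 ± 15.3 (log2 change -0.47, adjusted p = 0.00177). Scaled to the spiked controls, neither was called (log2 changes -0.36 and -0.17, adjusted p = 0.0602 and 0.225). Of the Lsm genes of the ring that binds shortened messages before decapping, Lsm1, Lsm2, Lsm3, Lsm4 and Lsm6 were called higher. Lsm2 went from 126 ± 2.69 to 178 ± 20.5 (log2 change 0.50, adjusted p = 0.00509) and Lsm4 from 606 ± 30.4 to 801 ± 17.2 (log2 change 0.40, adjusted p = 0.00116). The calls for Lsm1 and Lsm3 were lost whichever replicate was left out, and that for Lsm3 also with quantile normalization (adjusted p = 0.111). Lsm7, of the same ring, was not called, at 273 ± 82.6 and 215 ± 23.4 (log2 change -0.31, adjusted p = 0.152).

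Among Argonaute partners 2 of 16 were lower and 3 higher. Mov10, an RNA helicase, went from 132 ± 11.03 to 195 ± 17.0 (log2 change 0.56, adjusted p = 0.00166) and Snd1, a nuclease reported in the silencing complex, from 194 ± 18.7 to 286 ± 24.2 (log2 change 0.57, adjusted p = 0.000741). Ddx6, a helicase of processing bodies, was at 531 ± 66.8 and then 397 ± 17.7 (log2 change -0.41, adjusted p = 0.00474). Tnrc6b, a paralog of Tnrc6a, was lower as well, at 416 ± 17.9 and then 332 ± 8.56 (log2 change -0.32, adjusted p = 0.00722). Both calls were lost on the scale of the spiked controls (log2 changes -0.11 and -0.03, adjusted p = 0.531 and 0.908). At the primary transcript, 1 of 9 was lower and 3 higher. Ncbp1, the larger subunit of the cap-binding complex, went from 271 ± 12.1 to 380 ± 41.7 (log2 change 0.48, adjusted p = 0.00403) and its partner Ncbp2 rose by 0.32 on the log2 scale (adjusted p = 0.038; lost without replicate 1 or 4, and with quantile normalization at adjusted p = 0.0611). Ddx17, a helicase that works with the Microprocessor, had a log2 change of -0.29 (adjusted p = 0.0115; lost without replicate 2 or 4) and of 0.00 with scaling to the spiked controls. None of the 6 export and Dicer partners and none of the 3 PIWI genes measured was called by limma (at an unadjusted p under 0.05, 1 partner was higher). Mast cell markers moved in the cells as well, with 8 of 11 lower and 1 higher and a summed signal of 48897 to 53288 in norm cell and 36637 to 43871 in oxi cell; their part in these changes was not tested.

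From norm exo to oxi exo 3 of the 73 were called lower by limma and 0 higher (12 and 3 at an unadjusted p under 0.05), against 1.7% and 0.0311% of all probe sets. The 3 were in the decay group, and only 9 of the 73 were above background throughout an exosome group. Pabpc1, the poly(A)-binding protein of the cytoplasm, went from 1100.4 ± 129 to 497 ± 121 (log2 change -1.17, adjusted p = 0.00551; 0.0564 without replicate 2, and -0.58 with adjusted p = 0.352 after quantile normalization). Cnot6, a catalytic deadenylase, and Lsm4 were under background on all 4 oxi exo arrays, so only bounds hold. Cnot6, at 368 ± 113 in norm exo, was at least 1.40-fold higher there than in oxi exo (adjusted p = 0.0105), and Lsm4, at 371 ± 76.3, at least 1.43-fold (adjusted p = 0.0355; lost whichever replicate was left out, and with quantile normalization at adjusted p = 0.0931). Floored at background, neither was called (adjusted p = 0.97 and 0.353). The change in exosomes minus that in cells was called lower for the same 3 genes, at -1.82 for Lsm4, -1.60 for Cnot6 and -1.07 for Pabpc1 on the log2 scale (adjusted p = 0.0142, 0.00975 and 0.0211), each lost on leaving out at least 1 replicate. The sizes for Lsm4 and Cnot6 rest on signals under background, and floored at it Cnot6 was not called (adjusted p = 0.259). After quantile normalization Lsm4 and Pabpc1 were not called (adjusted p = 0.0685 and 0.164).

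**Figure D4:**
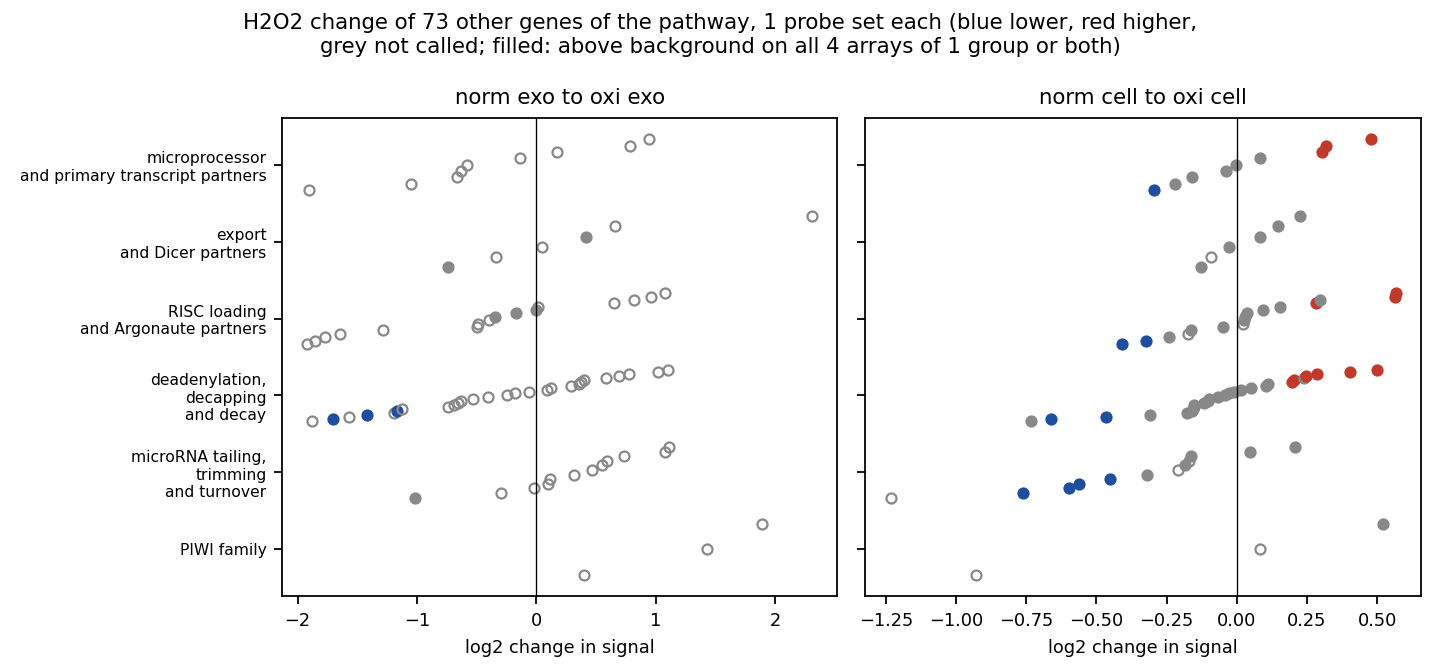
Log2 change in signal with H2O2 of 73 other genes of the microRNA pathway, 1 probe set each, grouped by role, in exosomes (left) and cells (right). Blue is lower, red is higher and grey is not called; filled points were above background on all 4 arrays of 1 group or both, which 9 genes were in exosomes and 65 in cells.

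Set against the cells, the exosome signals of the 34 probe sets were higher or lower depending on the scaling. With the deposited scaling 13 were called lower and 11 higher in norm exo than in norm cell, against 19% and 57.7% of all probe sets. In oxi exo 15 were lower and 9 higher than in oxi cell, against 19.4% and 60.8%. Of those called higher in both conditions, Ago3 1435904_at, 1442009_at and 1458476_at and Dgcr8 1446169_at were above background on 0 exosome arrays. Drosha 1438440_at and Dgcr8 1435439_at, called higher in norm exo only, were above it on 0 norm exo arrays. Such signals are not read as more transcript in exosomes. The medians of the 34 were -0.24 and -0.52 on the log2 scale, where those of all probe sets were 2.23 and 2.67. Scaled to the spiked controls, 26 were lower and 0 higher in norm exo (51.3% and 2.74% of all probe sets), and 27 lower and 1 higher in oxi exo (49.9% and 3.95%). After quantile normalization 14 were lower and 6 higher in norm exo (22.1% and 18.5% of all), and 13 lower and 5 higher in oxi exo (23.7% and 20.7%). The median over the 34 lay below that of all probe sets under each of the 3 scalings in both conditions. However, 79.4% of the 34 were above background throughout each cell group, against 43.7% (norm cell) and 44.3% (oxi cell) of all probe sets. All probe sets are thus an unlike baseline, and the medians do not show that the pathway differs from other genes detected in cells. Ago2 with 1455389_s_at stood at a log2 difference of -0.08 (adjusted p = 0.728) between norm cell and norm exo, at 1.33 after quantile normalization and at -4.19 on the scale of the spiked controls. Between oxi cell and oxi exo it was -1.71 with the deposited scaling (adjusted p = 0.000194), and -0.21 and no longer called after quantile normalization (adjusted p = 0.608). The Ago3 probe sets 1441089_at and 1441063_at, at 19.5 to 43.4 and 14.7 to 24.6 in norm cell, had log2 differences of 3.92 and 4.02 in norm exo, and of 3.73 and 3.43 after quantile normalization (adjusted p = 1.92e-05 and 0.000168), but of -0.19 and -0.09 on the scale of the spiked controls, so no direction is given for them.

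Where an exosome signal was under background on every array, only a bound can be given. Drosha was at least 1.45-fold higher in norm cell than in norm exo with 1438505_s_at, Ago1 at least 1.22-fold, and Tnrc6a at least 1.64-fold with 1425036_a_at and 1.63-fold with 1455128_x_at, on the deposited scale. In oxi cell against oxi exo, Tnrc6a was at least 1.39-fold higher with 1425036_a_at and Ago2 at least 1.24-fold with 1426366_at. The probe sets of Tnrc6a did not agree on this scale. Its brightest, 1439244_a_at, was called in neither condition (log2 difference -0.14 in norm and -0.06 in oxi, adjusted p = 0.527 and 0.819 by limma). Probe set 1439246_x_at was called higher in exosomes of both conditions (log2 difference 1.48 and 1.83, adjusted p = 0.00118 and 0.00323). No direction is therefore given for Tnrc6a as a gene. Floored at background, neither Ago1 in norm nor Ago2 with 1426366_at in oxi was called by limma (adjusted p = 0.0649 and 0.131). After quantile normalization neither was called (adjusted p = 0.0585 and 0.496). Of the wider list 45 of 73 were lower and 11 higher in each condition, against 19% and 57.7% of all probe sets in norm and 19.4% and 60.8% in oxi. The counts were 37 and 4, and 40 and 5, after quantile normalization, and 66 and 0, and 66 and 1, on the scale of the spiked controls. In cells 65 of the 73 were above background throughout a group, so here too all probe sets are an unlike baseline. Of the genes called higher in norm exo with the deposited scaling, only Adar and Cnot10 lay above background on any norm exo array. Of those called higher in oxi exo, only Adar and Dis3l2 did on any oxi exo array. The rest are not read as higher in transcript. Ddx5, a Microprocessor helicase, went from 3094 ± 223 in norm cell to 307 ± 165 in norm exo (log2 difference -3.53), and Hsp90aa1, the chaperone of Argonaute loading, from 3797 ± 248 to 358 ± 61.6 (log2 difference -3.42). Both stayed lower under all 3 scalings.

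**Figure D5:**
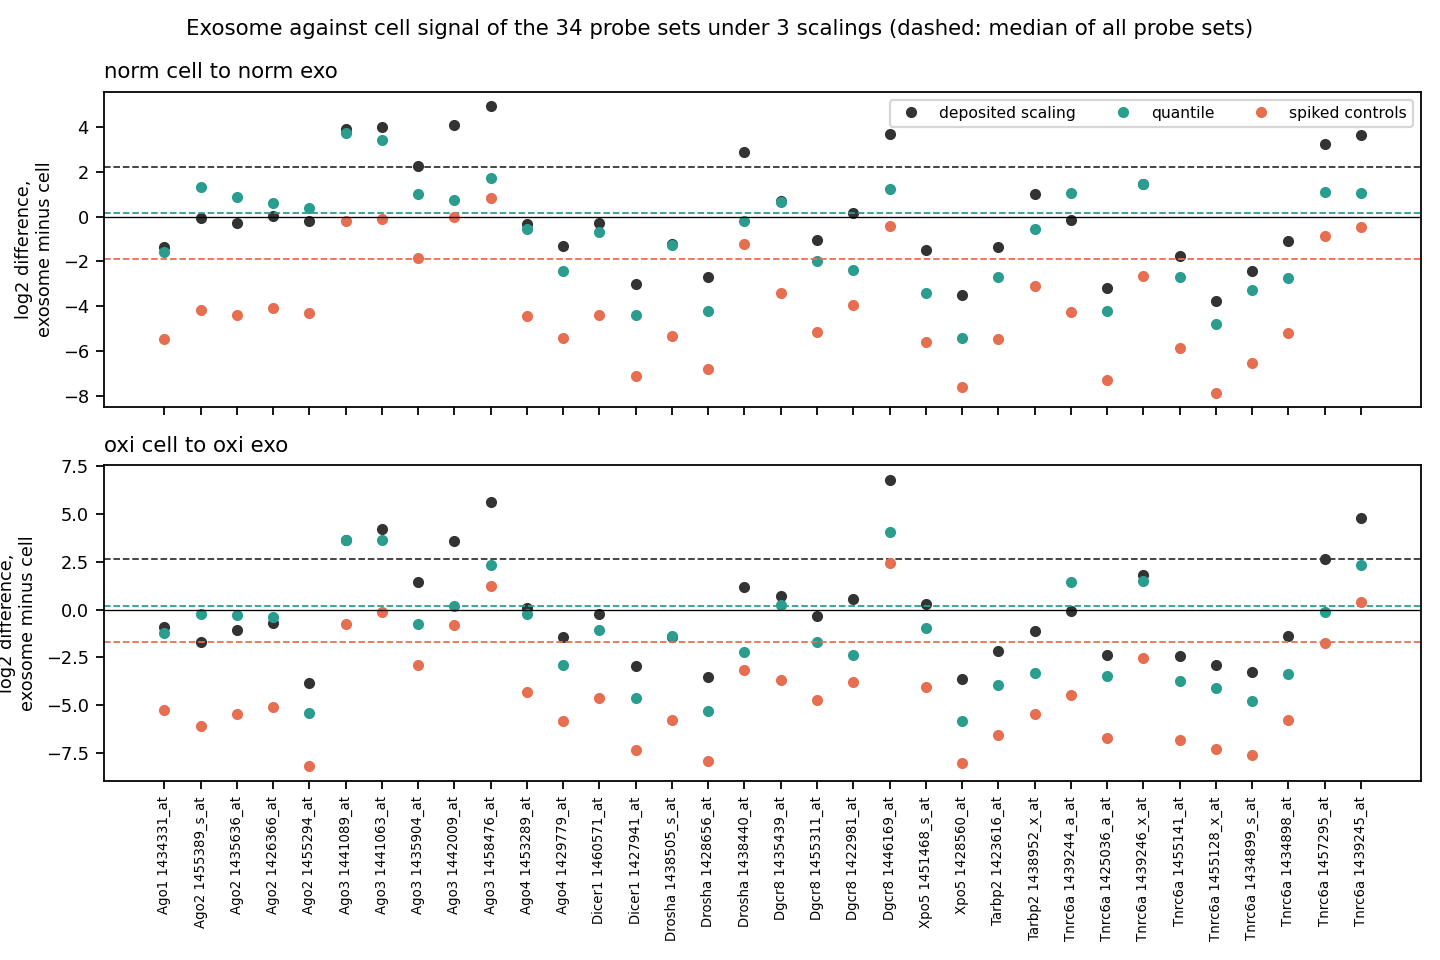
Log2 difference of exosome minus cell signal for each of the 34 probe sets in normal conditions (top) and oxidative stress (bottom), with the deposited scaling, quantile normalization and scaling to the spiked controls (colours). Dashed lines are the median of all probe sets under each scaling, which runs from 2.23 to -1.88 in the top panel, and many differences above 0 with the deposited scaling lie below 0 with scaling to the spiked controls.

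The genes whose profile over the 16 arrays was most like that of the brightest probe set of Ago2 were Eif4b (Pearson r = 0.992 of log2 signals), Chfr (0.986) and Saraf (0.979), among 9755 probe sets compared. Eif4b, a cofactor of the translation initiation helicase, averaged 568 in oxi exo, against 1674 in norm exo, and stood at 1586 and 1595 in the cells without and with H2O2. It was picked by its correlation over these same arrays, so that it shares its low group with Ago2 follows from the choice. For the brightest probe set of Dicer1 the nearest were Ccdc28b (0.925), Mprip (0.922) and Fbxl12 (0.909). That probe set, 1460571_at, is the dimmer one in cells and was above background on 1 norm exo array and 0 oxi exo arrays. In exosomes its likeness therefore rests mostly on signals under background. These are descriptions over arrays that share a scale within each sample type.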

How the data were processed

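Per the labels and the study's methods, the authors hybridised RNA of exosomes and MC/9 cells to Affymetrix mouse 430 2.0 arrays (the methods write 430A 2.0) and deposited MAS5.0 signal intensities on a linear scale from GCOS 1.2, each array scaled to a 2%-trimmed mean of 100. No detection calls were used. Without the 64 controls there were 45037 probe sets, and the platform annotation gave 1 symbol for 34945, several for 932 and none for 9160; none was named from several.

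The 8 arrays of each comparison were fitted on the log2 scale with limma 3.58.1 (R 4.3.3; lmFit, eBayes with trend). The replicate number entered as a block, since the study's methods name a paired test. Adjusted p are Benjamini-Hochberg values across the 45037 probe sets (threshold 0.05). The exosome-minus-cell change was fitted on the 8 differences within pairs, with a variance shared by exosome and cell differences. Their spreads were unequal: for Ago2 with 1455389_s_at the separate standard errors were 0.26 in exosomes and 0.06 in cells. The effect of sharing the variance on these calls was not tested. Background was the 95th percentile of 279 probe sets of 230 tissue-restricted genes; above background means above it on all 4 arrays, and an "at least" fold sets group means on the log2 scale against the background of a group that lay under it on every array. The brightest probe set of a gene has the highest mean log2 signal over 16 arrays. Genes of the wider list named are up to 2 called genes a role, direction and comparison with the largest change and above background; Tut7, Zswim8, Pabpc1, Lsm1, Lsm3 and Lsm6 were named after their values were seen. Results were recomputed without the block, after quantile normalization, scaled to 9 spiked controls, with a filter on dim probe sets, on log2(signal + 100), with a floor at background (fitted without trend), by the methods' paired test, with each replicate left out, and with the probe set brightest in cells. The fits were tested on simulated data. Promoters and microRNAs are RefSeq entries of GRCm38.p6, where 9 of 10 members, all but Ago2, had a promoter entry. The members and lists were chosen with earlier results of these data known. Python 3.11.15, numpy 2.4.6, pandas 2.3.3 and matplotlib 3.10.9 were used.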

Additional observations from a re-analysis of the deposited data

Results flagged for a closer look

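In a limma test of the difference itself, the change of Ago2 with H2O2 in exosomes minus that in cells was called lower with some of its probe sets. It was -1.64 on the log2 scale with 1455389_s_at and -3.63 with 1455294_at. The call for 1455389_s_at was lost without replicate 1, 2 or 4 (highest adjusted p = 0.181) and with quantile normalization (adjusted p = 0.0989). That for 1455294_at was lost without replicate 2 (adjusted p = 0.0576). Probe set 1455294_at was under background on all 4 oxi exo arrays, so the size of its value cannot be read, and floored at background it was not called (adjusted p = 1). The remaining probe sets of Ago2 were not called (adjusted p = 0.271 and 0.467). Among the 136 groups of 4 arrays of the 34 probe sets, 10 had 1 array set far apart from the other 3, and chance alone gives about 1 in 20 groups. In the cells these were Drosha 1438505_s_at in oxi cell replicate 3, the highest at 464, Ago3 1441063_at in oxi cell replicate 4, the highest at 21.6, Tnrc6a 1434899_s_at in norm cell replicate 2, the highest at 290.15, Tnrc6a 1457295_at in norm cell replicate 2, the highest at 16.1, and in oxi cell replicate 4, the lowest at 1.56, and Drosha 1438440_at in norm cell replicate 1, the lowest at 0.481, and in oxi cell replicate 1, the highest at 8.67. In the exosomes they were Xpo5 1451468_s_at in norm exo replicate 2, the highest at 77.8, Xpo5 1428560_at in norm exo replicate 3, the highest at 19.1, and Tnrc6a 1439245_at in oxi exo replicate 4, the highest at 152, all 3 under background.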

How the results depend on the processing

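Same-numbered arrays did not deviate together (correlations of -0.02 to 0.04 with H2O2, and not every array correlated best with its own number), so the numbers are not shown to pair the samples; without the replicate block the member counts moved by less than 1.5 times and the wider list's exosome-minus-cell count went from 3 to 5 lower. From norm exo to oxi exo, members lower were 1 with the floor and 0 by the methods' paired t-test after Benjamini-Hochberg, and genes of the wider list lower were 1 with quantile normalization, 5 with log2(signal + 100), 1 with the floor and 0 by the paired t-test. From norm cell to oxi cell, members lower and higher were 0 and 8 with spiked scaling, 0 and 0 with the floor and 0 and 0 by the paired t-test, and wider genes 1 and 32, 5 and 3, and 0 and 0. From norm cell to norm exo, members lower and higher were 26 and 0 with spiked scaling, 3 and 17 with the floor and 8 and 4 by the paired t-test, and higher were 6 with quantile normalization and 5 with the filter; wider genes higher were 4 (quantile), 0 (spiked), 3 (filter), 20 (floor) and 0 (paired t-test). From oxi cell to oxi exo, members lower and higher were 27 and 1 (spiked) and 5 and 18 (floor), and higher were 5 (quantile), 4 (filter) and 4 (paired t-test); wider genes higher were 5, 1, 3, 23 and 5 (quantile, spiked, filter, floor, paired t-test), and 29 were lower with the floor. For the exosome-minus-cell change, members lower were 1 with quantile normalization and 8 were higher with the floor; wider genes lower were 1 (quantile), 6 (log2(signal + 100)) and 6 (floor), and higher 1 and 8 under the last pair. Leaving out each replicate gave members lower 2 to 3 and higher 0 to 0 in exosomes, 1 to 3 and 0 to 2 in cells, 10 to 12 and 9 to 11 for norm exo against cell, 12 to 15 and 8 to 9 for oxi exo against cell, and 0 to 2 and 0 to 0 for the exosome-minus-cell change; wider genes were 1 to 3 and 0 to 0, 7 to 9 and 7 to 9, 42 to 46 and 8 to 9, 41 to 44 and 10 to 11, and 0 to 4 and 0 to 0 in the same order. Where the brightest probe set of a gene was called under the main setting or the alternative, its direction turned, from norm cell to norm exo, for Ago2 (1.33) and Tnrc6a (1.07) with quantile normalization, Ago3 (-0.19) and Dgcr8 (-3.40) with spiked scaling, Ago4 (0.28), Dicer1 (0.76), Xpo5 (1.71) and Tarbp2 (0.95) with the floor, and Dgcr8 (-1.04) with the probe set brightest in cells. From oxi cell to oxi exo it turned for Ago1 (0.040), Dicer1 (0.82) and Tarbp2 (0.99) with the floor, Ago3 (-0.73), Ago4 (-4.30), Dgcr8 (-3.69) and Xpo5 (-4.06) with spiked scaling, Tnrc6a (1.44) with quantile normalization, and Xpo5 (-3.64) with the probe set brightest in cells; for the exosome-minus-cell change it turned for Dgcr8 (0.33) with the floor. The floor sets exosome signals to a background that is 14.6 to 20.0 times that of the cells, which by construction lifts dim exosome signals over dim cell signals; the other causes were not tested. The background of the exosome arrays limits what could be detected there.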
